A study of Homo sapiens with 8 samples.

Results

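The comparison described here is that of the JAK2 inhibitor LY2784544, given alone, with vehicle in HEL cells. It rests on 4 of the 8 arrays of the study, 2 with LY2784544 and 2 with vehicle, and on the 19181 of 33297 probe sets that the platform annotation ties to exactly 1 gene. HEL is an established human erythroleukaemia line that depends on an activated JAK2 kinase, and all of its cultures here descend from that 1 line. The study exposed these cells for 48 h to vehicle, to LY2784544, to the telomerase inhibitor GRN163L, or to both agents, once in each of 2 separate experiments. The control cultures received DMSO, the LY2784544 cultures 0.5 µM of the inhibitor, and the GRN163L cultures 20 µM of that oligonucleotide. The labels do not restate the doses of the combination. One dose and 1 time point of LY2784544 were measured.

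JAK2 is the tyrosine kinase bound to the receptors for erythropoietin, thrombopoietin and several interleukins. Once active, it phosphorylates STAT transcription factors, which enter the nucleus and switch on genes such as SOCS3 and PIM1, and it feeds the RAS-ERK and PI3K pathways. In cells of the erythroid and megakaryocytic lineages this signalling supports survival, division and maturation. HEL cells can express genes of both lineages.

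Values are RMA signals on the log2 scale, in which a difference of 1 is a doubling, and a change is LY2784544 minus control averaged over the experiments. After 1 probe set was kept per gene and genes under the 30th percentile of the mean signal were left out, 12570 genes were tested. A gene was called at a Benjamini-Hochberg adjusted p below 0.05 in a limma fit, and each SE comes from the spread that the 8 arrays share within groups. With 2 cultures a group, a p-value speaks only of how far such cultures, and their arrays, vary. The erythroid factors KLF1 and GATA1 and the megakaryocyte integrin subunits ITGA2B and ITGB3 lay between 9.04 and 11.83 on all 4 arrays. The erythroid marker EPOR lay between 7.99 and 8.89, and the megakaryocyte markers PPBP and PF4 between 5.72 and 6.27 with vehicle. The B and T cell markers MS4A1, PAX5, CD3D and CD3E lay between 3.24 and 4.62, but CD79A read 6.97 and 7.08 with vehicle. The mast cell markers KIT, CPA3, HDC and FCER1A and the monocyte marker LYZ lay between 9.19 and 11.12. CD14, CSF1R, MPO and ELANE, of monocytes and neutrophils, were at 5.45 or lower. The control arrays had medians of 7.48 and 7.46 over the 12570 tested genes, and the LY2784544 arrays 7.33 and 7.40. Over 335 olfactory receptor genes, which serve here as a guide to dim probe sets, the median was 3.22 and 3.27 with vehicle and 3.47 and 3.40 with LY2784544. Giving every array the same median would move each LY2784544 change up by 0.103.

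Among 12570 genes, 160 were called (1.27%), with 49 higher (0.390%) and 111 lower (0.883%) under LY2784544. Each of the 160 moved in 1 direction in experiments 1 and 2 alike, which a call on 2 against 2 arrays favours, and 140 changed by at least 1. A change of at least 2 was found for 23. The median size of change was 1.31 over the called genes and 0.19 over all genes tested. The largest fall was that of BNIP3, which encodes a mitophagy receptor of the mitochondrial membrane, and the largest rise that of LYVE1, a receptor for hyaluronan. With the experiment as a block the fit called 345 genes, 99 higher and 246 lower, and these included all 160. With 1 median for all arrays the split was 63 higher and 89 lower. The count depended on single arrays: it was 20 without the control of experiment 1, 0 without that of experiment 2, 58 without the LY2784544 array of experiment 1, and 76 without either GRN163L array, which enter only the shared spread. Without the control of experiment 2, 1577 genes still had an unadjusted p below 0.05 in limma.

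The experiments can be read apart, because their changes share no array. In experiment 1, 204 genes were higher by at least 1 and 470 lower, and in experiment 2 the counts were 123 and 198. Both experiments passed that mark in the same direction for 55 rises and 107 falls, and no gene passed it in opposite directions. The shared rises made up 27.0% of those in experiment 1 and 44.7% of those in experiment 2, against 0.979% and 1.62% of all tested genes that were higher by at least 1 in experiments 2 and 1. The shared falls made up 22.8% of those in experiment 1 and 54.0% of those in experiment 2, against 1.58% and 3.74% that were lower by at least 1 in experiments 2 and 1. Genes do not vary independently, so the correlation of both sets of changes over the 12570 genes, r = 0.48, is a description. The sign was the same for 60.6% of them. The spread of changes was wider in experiment 1 (SD 0.50 over genes) than in experiment 2 (SD 0.37). Among the 49 called rises, 32 were larger in experiment 1, whereas the 111 called falls divided into 51 larger in experiment 1, 58 larger in experiment 2 and 2 equal.

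**Figure D1:**
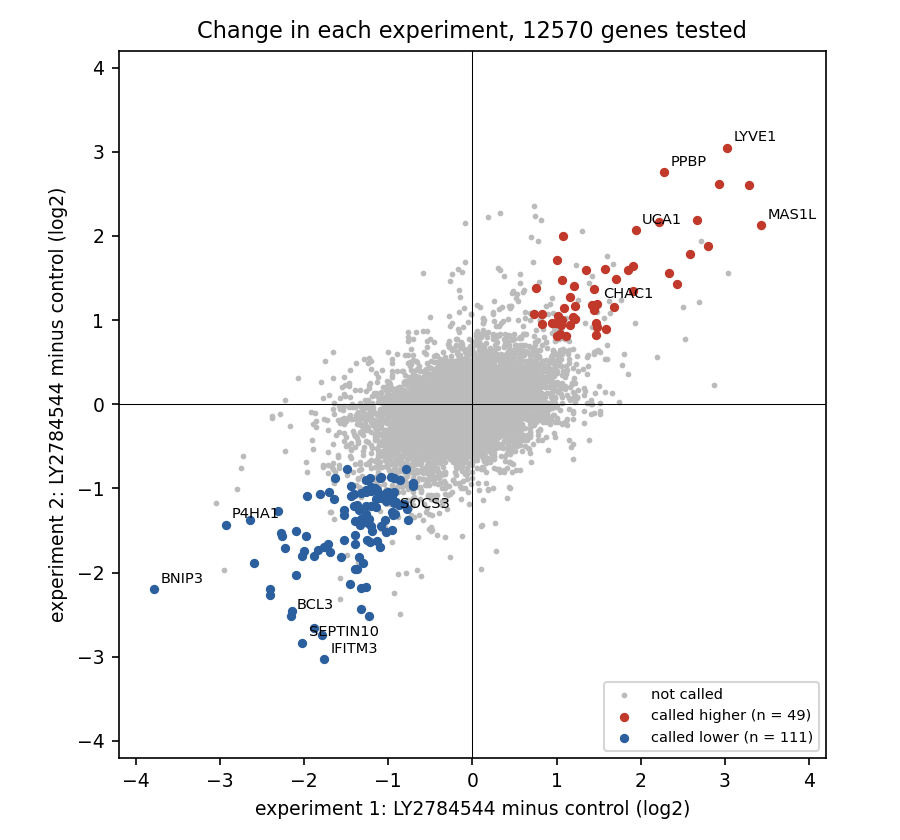
Change with LY2784544 against vehicle (log2) in experiment 1 on the horizontal axis and in experiment 2 on the vertical axis, 1 point per tested gene. The 49 called rises and 111 called falls all lie in the quadrants where both experiments share a sign, and the grey cloud of genes that were not called is wider along experiment 1.

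The drug's target was read first. JAK2 itself had signals of 10.83 and 10.05 with vehicle and 10.46 and 10.52 with LY2784544, so its arrays overlapped (change 0.05, SE 0.23, adjusted p = 0.957). An inhibitor of the kinase acts on the protein, so this level does not check the labels. None of the 18 tested members of the list of JAK kinases, STAT factors and their phosphatases was called, and the median change over that list was -0.06, or 0.04 with 1 median for all arrays and -0.16 without the control of experiment 2.

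Of the genes that JAK-STAT signalling is known to switch on, 17 of 18 tested had a lower mean with LY2784544 and 1 a higher one. Over all tested genes, 7041 of 12570 were lower. The median change over this list was -0.49, against -0.04 over all genes, and it was -0.46 in experiment 1 and -0.55 in experiment 2. In 11 members both LY2784544 arrays lay below both controls, an arrangement found in 25.2% of all tested genes. Only 1 member was called lower, against 0.883% of all genes. SOCS3, the feedback inhibitor that binds JAK2, read 8.29 and 8.41 with vehicle and 7.35 and 7.10 with LY2784544. It fell by 1.13 (SE 0.18, adjusted p = 0.0251), with a clear gap between the groups.

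The other members did not pass the test without the experiment as a block. With it, PIM1 (adjusted p = 0.0476) and ID1 (adjusted p = 0.0307) were called. The kinase gene PIM1 read 12.02 and 12.01 against 11.39 and 11.31 (change -0.67, SE 0.16, adjusted p = 0.0991), and the differentiation inhibitor ID1 read 9.91 and 10.45 against 9.08 and 9.41 (change -0.94, adjusted p = 0.115). BCL2L1, whose product BCL-XL protects erythroid cells from death, read 11.44 and 11.52 against 10.95 and 10.98 (change -0.52, adjusted p = 0.162). In each of these 3 genes both treated arrays were below both controls. The phosphatase gene DUSP5 had the lowest change of the list, -1.33, but its controls were 8.12 and 9.82, far apart (SE 0.44, adjusted p = 0.228).

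Among 20 tested cytokine receptors that signal through JAKs, 1 was called lower, against 0.883% of all genes. IL2RB, the beta chain of the interleukin-2 and interleukin-15 receptors, read 7.01 and 7.88 with vehicle and 5.69 and 5.70 with LY2784544, and it fell by 1.75 (SE 0.30, adjusted p = 0.0306). CSF2RB, the shared beta chain of the GM-CSF, interleukin-3 and interleukin-5 receptors, read 10.22 and 9.72 with vehicle and 10.85 and 10.75 with the inhibitor (change 0.83, SE 0.19, adjusted p = 0.0886). Its groups did not overlap either, and the difference passed the threshold only where the experiment was a block (there adjusted p = 0.0331). The median change over the 20 receptors was -0.19.

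Genes that ERK signalling induces had a lower mean in 20 of 24 tested cases, against 56.3% of all genes. In 7 members both treated arrays lay below both controls, against 25.2% of all genes. The median change over this list was -0.46. By experiment it was -0.10 and -0.49, and it moved to -0.04 without the control of experiment 2 and to -0.26 without the LY2784544 array of experiment 1. The single call in this list went up, where 0.390% of all genes were called higher. ETV1, an ETS-family transcription factor, read 5.44 and 5.69 with vehicle and 6.92 and 6.61 with LY2784544 (change 1.20, SE 0.19, adjusted p = 0.0237). DUSP4 and SPRY1, which encode feedback inhibitors of the ERK pathway, had changes of -0.87 (adjusted p = 0.0746, or 0.0369 with the block) and -0.89 (adjusted p = 0.133).

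In the list of NF-kB family and inflammatory genes, 19 of 23 tested had a lower mean. Both treated arrays lay below both controls in 12, and 1 was called lower. Over all tested genes these shares were 56.3%, 25.2% and 0.883%. The called gene, BCL3, had the smallest adjusted p of all genes. It encodes an atypical IkB protein that works in the nucleus with NF-kB subunits, and its signals were 8.70 and 8.85 with vehicle and 6.54 and 6.34 with LY2784544. BCL3 fell by 2.34 (SE 0.16, adjusted p = 0.00234), and its 2 arrays within each group differed far less than the groups did. NFKB1 and RELB, which encode NF-kB subunits, had changes of -0.73 (adjusted p = 0.264) and -0.58 (adjusted p = 0.309), and the feedback gene TNFAIP3 had a change of -1.10 (adjusted p = 0.171, or 0.0177 with the block).

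**Figure D2:**
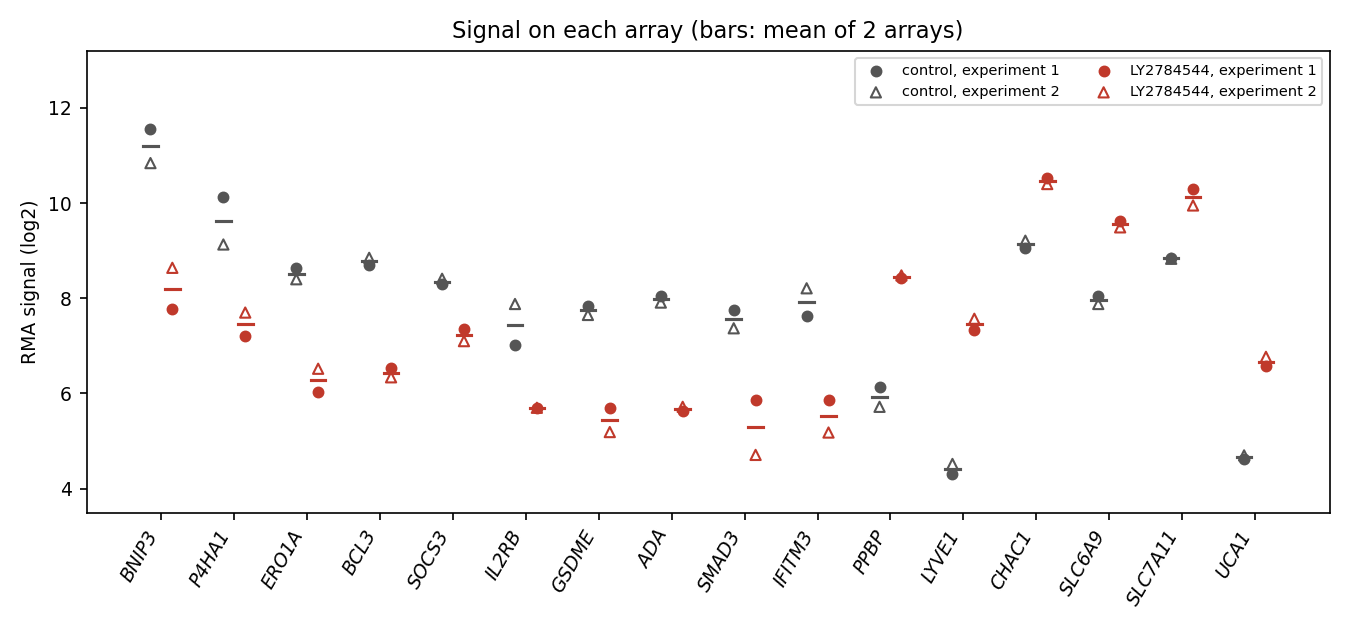
RMA signal (log2) of 16 genes on each array, with filled circles for experiment 1, open triangles for experiment 2, grey for vehicle, red for LY2784544 and a bar at the mean of the 2 arrays. In each of the 16 genes the vehicle and LY2784544 symbols do not overlap, as with BCL3 at 8.70 and 8.85 against 6.54 and 6.34. All 16 were picked from the called genes, and a call on so few arrays favours such a gap.

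The hypoxia-inducible genes held more called members than any other list examined. Cells turn these genes on through the factors HIF-1 and HIF-2, which are stabilised when oxygen is low and whose synthesis also responds to growth factor signalling. Of 29 tested members, 25 had a lower mean with LY2784544, 20 had both treated arrays below both controls, and 6 were called lower. Over all tested genes these shares were 56.3%, 25.2% and 0.883%. The median change was -0.74 and differed between the experiments, at -1.08 in experiment 1 and -0.33 in experiment 2, and it was -0.47 without the control of experiment 1.

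BNIP3 read 11.55 and 10.84 with vehicle and 7.77 and 8.64 with LY2784544, and it fell by 2.99 (SE 0.39, adjusted p = 0.0112). ERO1A, the oxidase that helps form disulfide bonds in the endoplasmic reticulum, read 8.63 and 8.40 against 6.04 and 6.52 and fell by 2.24 (SE 0.23, adjusted p = 0.00551). P4HA1, a collagen prolyl hydroxylase subunit, read 10.13 and 9.13 against 7.20 and 7.70 and fell by 2.18 (SE 0.34, adjusted p = 0.0212). In all 3 the groups were clearly apart, and each treated array of experiment 1 was lower than that of experiment 2.

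BHLHE40, a transcriptional repressor, read 10.09 and 9.42 against 7.86 and 7.71 and fell by 1.97 (SE 0.34, adjusted p = 0.0323). FAM162A, a mitochondrial protein linked to cell death in low oxygen, read 9.07 and 8.62 against 6.80 and 7.09 and fell by 1.90 (SE 0.27, adjusted p = 0.0165). EPAS1, which encodes HIF-2 alpha itself, read 5.69 and 5.70 against 4.65 and 4.33 and fell by 1.21 (SE 0.22, adjusted p = 0.0446). Its signals were the dimmest of the 6. NDRG1 had a change of -1.27 and lay just outside the threshold (adjusted p = 0.0543).

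The oxygen sensor EGLN1, which marks HIF proteins for destruction and is itself induced by HIF, read 8.27 and 7.32 with vehicle and 6.44 and 6.25 with LY2784544 (change -1.45, SE 0.29, adjusted p = 0.0588). HIF1A, which encodes HIF-1 alpha, read 10.11 and 10.06 against 9.26 and 9.92 (change -0.50, SE 0.24, adjusted p = 0.425), so its lower mean came mostly from experiment 1. The same held for EGLN3, with changes of -1.57 and 0.07 in experiments 1 and 2, and for PDK1, a kinase that keeps pyruvate out of the mitochondria, with -1.62 and -0.37. VEGFA, the blood vessel growth factor, read 9.77 and 9.59 against 9.81 and 9.51 and overlapped between the groups. DDIT4, which ATF4 also induces, had a change of 0.90 (adjusted p = 0.135), the highest of the list.

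Glycolysis overlaps with the hypoxia response, since HIF-1 induces most of its enzymes. Of 21 tested glycolysis genes, 19 had a lower mean, 16 had both treated arrays below both controls, and 2 were called lower. Over all tested genes these shares were 56.3%, 25.2% and 0.883%. The aldolase gene ALDOC read 11.28 and 11.04 with vehicle and 8.64 and 9.67 with LY2784544, and it fell by 2.01 (SE 0.37, adjusted p = 0.0436). PGM1, the phosphoglucomutase that joins glycogen to glycolysis, read 10.66 and 10.55 against 9.45 and 9.57 and fell by 1.10 (SE 0.17, adjusted p = 0.0207). PFKFB4, a regulator of phosphofructokinase, had a change of -2.11, larger than either, but its controls differed (9.26 and 7.92, SE 0.45, adjusted p = 0.072, or 0.0492 with the block). PGK1 had a change of -0.79 (adjusted p = 0.131) and HK2 one of -0.78 (adjusted p = 0.236). AK4, a mitochondrial adenylate kinase, read 9.78 and 9.67 against 8.08 and 8.63 and fell by 1.37 (adjusted p = 0.0322).

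The promoters of 7 of these 9 called genes are shown because each holds ACGTG, the core letters of the element to which HIF binds, on 1 strand or the other. EPAS1 holds only the related form GCGTG, PGM1 holds neither form in the bases searched, and these genes are not shown. The stretches are 60 bases long, written 5′ to 3′ on the gene's own strand, from RefSeq promoters on GRCh38.p14. Capitals mark ACGTG or GCGTG read on either strand, where the reverse forms are CACGT and CACGC, and CACGTG is ACGTG on both strands.
BNIP3: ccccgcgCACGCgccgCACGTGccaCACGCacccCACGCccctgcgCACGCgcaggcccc
P4HA1: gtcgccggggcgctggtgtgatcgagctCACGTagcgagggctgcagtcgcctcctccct
ERO1A: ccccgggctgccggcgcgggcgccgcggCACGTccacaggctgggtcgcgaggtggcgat
FAM162A: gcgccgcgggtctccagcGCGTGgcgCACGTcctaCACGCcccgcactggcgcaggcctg
BHLHE40: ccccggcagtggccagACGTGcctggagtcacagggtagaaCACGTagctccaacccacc
ALDOC: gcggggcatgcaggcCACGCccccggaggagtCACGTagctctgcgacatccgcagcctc
AK4: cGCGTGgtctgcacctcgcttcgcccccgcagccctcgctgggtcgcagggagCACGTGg
The BNIP3 stretch is chr10:131982014-131982073 on the minus strand and holds 6 matches. That of P4HA1 is chr10:73096921-73096980 (minus), that of ERO1A chr14:52695641-52695700 (minus), and that of FAM162A chr3:122384072-122384131 (plus). BHLHE40's is chr3:4979247-4979306 (plus), ALDOC's chr17:28576896-28576955 (minus), and AK4's chr1:65147406-65147465 (plus). In the 250 bases before the gene start, ACGTG on either strand was found in 12 of 24 tested hypoxia genes with a listed promoter (50%) and in 8 of 20 glycolysis genes (40%). It was found in 22.9% of the 9969 tested genes with a promoter and in 18.7% of all 27305 promoters. Among called genes it was found in 23 of 78 that fell (29.5%) and 4 of 37 that rose (10.8%). GCGTG was found in 44.6% of tested genes with a promoter and in 43.6% of the 78 that fell. A match describes letters and shows no binding.

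Some genes of amino acid supply were higher with LY2784544. When amino acids run short or proteins misfold, the factor ATF4 raises genes for amino acid uptake and synthesis and for charging of transfer RNA, a program known as the integrated stress response. Among its 23 tested regulators and targets, 17 had a higher mean and 2 were called higher, against 43.5% and 0.390% of all genes. Their median change was 0.27, made up of 0.46 and 0.18 in experiments 1 and 2, and it was 0.14 without the control of experiment 1. For the combination against GRN163L the median over this list was -0.30, against -0.09 over all genes tested. CHAC1, an enzyme that degrades glutathione, read 9.05 and 9.21 with vehicle and 10.53 and 10.40 with the inhibitor, and it rose by 1.34 (SE 0.18, adjusted p = 0.0143). SESN2, a leucine sensor that restrains mTORC1, read 7.56 and 7.85 against 8.98 and 9.03 and rose by 1.30 (SE 0.23, adjusted p = 0.0362). ATF4 itself read 10.52 and 10.59 against 11.05 and 11.03, with no overlap but no call (change 0.49, SE 0.15, adjusted p = 0.188).

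Of 16 tested amino acid transporters, 12 had a higher mean and 3 were called higher, against 43.5% and 0.390% of all genes. SLC6A9, a glycine transporter, read 8.05 and 7.88 with vehicle and 9.63 and 9.49 with LY2784544 and rose by 1.60 (SE 0.16, adjusted p = 0.00458). SLC7A11, the cystine importer, read 8.85 and 8.83 against 10.29 and 9.95 and rose by 1.28 (SE 0.21, adjusted p = 0.0268). SLC38A1, a glutamine transporter, read 9.80 and 9.88 against 10.82 and 10.93 and rose by 1.04 (SE 0.19, adjusted p = 0.0446). In these 3 genes both treated arrays lay above both controls, and the arrays of a group were close together. The median over the 16 transporters was 0.49, and SLC7A5, the large neutral amino acid carrier, had a change of 0.87 (adjusted p = 0.074, or 0.0415 with the experiment as a block). On top of GRN163L the transporter median was 0.02, against -0.09 over all genes tested.

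Serine, asparagine and one-carbon enzymes had a higher mean in 14 of 19 cases and 1 call, against 43.5% and 0.390% of all genes. Their median was 0.23, and on top of GRN163L it was -0.23, against -0.09 over all genes tested. For LY2784544 minus GRN163L the median was 0.09 over the stress response list, 0.30 over the transporters and -0.17 over these enzymes. Over all genes tested it was -0.04. PSAT1, an aminotransferase of serine synthesis, read 9.19 and 8.45 with vehicle and 10.20 and 10.17 with LY2784544 and rose by 1.37 (SE 0.26, adjusted p = 0.0472). Asparagine synthetase, ASNS, had a larger change that missed the threshold, with 7.54 and 6.69 against 9.14 and 8.45 (change 1.68, SE 0.33, adjusted p = 0.0582). It passed in the blocked fit (adjusted p = 0.0235). Of 19 aminoacyl-tRNA synthetases, 16 had a higher mean, against 43.5% of all genes, and 3 a lower one. None was called, and the largest change among them was that of WARS1, 1.43 (adjusted p = 0.0876, or 0.0177 with the block).

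The amino acid response motif, TGATGNAA on either strand, was found before the start of 4 of 22 genes of the stress response list (18.2%) and 4 of 14 serine and one-carbon genes (28.6%), but of 0 of 15 amino acid transporters. The share was 1.46% of tested genes with a promoter and 3.19% of all promoters. Promoters were listed for 37 of the 49 called rises and 78 of the 111 called falls, and among these CHAC1 alone held it, so its stretch is shown. It is chr15:40953236-40953295 on the plus strand of GRCh38.p14, from RefSeq, with the motif, here in its reverse form, in capitals.
CHAC1: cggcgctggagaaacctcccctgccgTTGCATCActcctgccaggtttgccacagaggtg

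The megakaryocyte and platelet genes included 2 calls, both up, and 19 of 27 tested members had a higher mean (median change 0.22). Over all genes tested, 0.390% were called higher and 43.5% had a higher mean. PPBP, the platelet chemokine precursor stored in alpha granules, read 6.14 and 5.72 with vehicle and 8.42 and 8.48 with LY2784544 and rose by 2.52 (SE 0.23, adjusted p = 0.00371). CLEC1B, the platelet receptor CLEC-2, read 4.15 and 4.23 against 5.20 and 5.17 and rose by 1.0 (SE 0.18, adjusted p = 0.0363). The controls of CLEC1B lay below the level of 4.37 used to filter genes, so this change started from a dim probe set. Its mean was 4.28 with GRN163L and 5.29 with the combination. CLEC1B thus passed the filter only through the arrays treated with LY2784544, and its call adds no support for the list. PF4, a related platelet chemokine, read 6.11 and 6.27 against 7.05 and 7.53 (change 1.10, SE 0.27, adjusted p = 0.113, or 0.029 with the block). In bulk RNA, fewer cells of a type and less RNA per cell cannot be told apart.

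Red cell genes showed no shared direction. Of 20 tested globin and red cell genes none was called, and their median change was -0.27 in experiment 1 and 0.28 in experiment 2. HBZ, the embryonic zeta globin, read 8.42 with vehicle and 5.69 with LY2784544 in experiment 1, and 9.54 and 8.93 in experiment 2 (change -1.67, SE 0.93, adjusted p = 0.504). The fall in experiment 1 was the deeper by far. The 20 genes of haem synthesis and iron handling had a median of 0.07 and no call, and the 9 mast cell and basophil genes had none either. KIT, the stem cell factor receptor, read 10.29 and 10.28 against 11.12 and 10.58 (adjusted p = 0.601).

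Of 20 blood progenitor genes, 1 was called lower, against 0.883% of all genes. THY1, a surface glycoprotein of progenitors and T cells, read 9.07 and 9.54 with vehicle and 7.85 and 7.90 with LY2784544 and fell by 1.43 (SE 0.22, adjusted p = 0.0212). CD34, the common progenitor marker, was higher, with 7.41 and 7.13 against 8.64 and 8.79 (change 1.45, SE 0.30, adjusted p = 0.0699, or 0.028 with the block).

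A few lymphocyte genes that HEL cells transcribe were lower. The list had 15 of 28 members above the filter, of which 3 were called lower, against 0.883% of all genes. PRF1, the pore-forming protein of cytotoxic granules, read 6.78 and 7.46 with vehicle and 4.99 and 4.72 with LY2784544 and fell by 2.27 (SE 0.26, adjusted p = 0.00865). The B cell receptor chain CD79A read 6.97 and 7.08 against 5.32 and 5.96 and fell by 1.39 (SE 0.25, adjusted p = 0.0416), and the signal of its partner CD79B fell by 1.02 (adjusted p = 0.0334). The B and T cell markers MS4A1, PAX5, CD3D and CD3E stayed at 4.62 or lower on these 4 arrays. The median over the 15 tested members was -0.17. It was 0.05 without the filter, -1.02 with the filter at the 50th percentile and 0.04 without the LY2784544 array of experiment 2.

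Other surface receptors and granule genes of immune cells were among the calls in both directions, as seen once the called genes were read by name. The falls included those of the integrin ITGAL (change -1.92, adjusted p = 0.0112), the inhibitory receptor CD200R1 (-1.24, adjusted p = 0.0112), the adhesion molecule NCAM1 (-1.48, adjusted p = 0.00886) and the cathepsin gene CTSW (-0.92, adjusted p = 0.0446). TNFRSF9, the costimulatory receptor 4-1BB, read 6.26 and 6.48 with vehicle and 4.57 and 4.72 with LY2784544 and fell by 1.73 (SE 0.16, adjusted p = 0.00371). In the other direction, CD48 rose by 1.12 (adjusted p = 0.0251), its relative SLAMF6 by 0.89 (adjusted p = 0.0322), SIGLEC9 by 0.98 (adjusted p = 0.0255) and TLR6 by 1.31 (adjusted p = 0.0263). HLA-DRA, the alpha chain of HLA-DR, read 7.50 and 7.35 against 8.72 and 8.52 and rose by 1.20 (SE 0.23, adjusted p = 0.046). It was the only call among 8 tested HLA class II genes, 6 of which had a higher mean. Of all genes tested, 0.390% were called higher and 43.5% had a higher mean.

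Interferon-stimulated genes had a lower mean in 17 of 23 tested cases, and 2 were called lower, against 56.3% and 0.883% of all tested genes. IFITM3, which blocks viruses at endosomes, read 7.62 and 8.21 with vehicle and 5.86 and 5.18 with LY2784544 and fell by 2.40 (SE 0.37, adjusted p = 0.0207). IFITM1, its neighbour in sequence and function, read 11.08 and 11.04 against 10.27 and 9.85 and fell by 1.0 (SE 0.18, adjusted p = 0.0429). The related IFITM2 had a change of -0.39 (adjusted p = 0.352). The family is closely related, and probes that bind more than 1 member could mix their signals.

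The STAT site TTCNNNGAA, which reads the same on both strands, was found before the start of 6 of 78 called genes that fell (7.69%) and 4 of 37 that rose (10.8%). It was found in 5.64% of tested genes with a promoter and in 6.78% of all promoters, so the falls were close to the background. The stretches of 2 genes among the falls, chosen after their values were seen, are shown with that site in capitals.
ADA: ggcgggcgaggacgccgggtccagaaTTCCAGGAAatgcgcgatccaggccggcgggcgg
TNFRSF9: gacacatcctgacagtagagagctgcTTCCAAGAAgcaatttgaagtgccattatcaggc
The first is chr20:44651801-44651860 and the second chr1:7940993-7941052, both on the minus strand of GRCh38.p14 and from RefSeq. ADA encodes adenosine deaminase, which breaks down adenosine. It read 8.05 and 7.91 with vehicle and 5.64 and 5.72 with LY2784544 and fell by 2.30 (SE 0.24, adjusted p = 0.00579). ADA was the only call among 15 tested purine and adenosine genes, against 0.883% of all genes called lower.

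Genes of cell death gave 1 call in each direction among 23 tested, where 0.390% of all genes were called higher and 0.883% lower. GSDME, a gasdermin that forms membrane pores once caspases cleave it, read 7.84 and 7.65 with vehicle and 5.70 and 5.19 with LY2784544 and fell by 2.30 (SE 0.22, adjusted p = 0.0044). BMF, a BH3-only protein that opposes BCL2, read 4.70 and 4.98 against 6.29 and 5.88 and rose by 1.25 (SE 0.19, adjusted p = 0.0192). The groups were apart in both genes. MCL1 had a change of -0.48 (adjusted p = 0.53), with controls of 9.91 and 10.56 that overlapped the treated arrays at 9.47 and 10.04.

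The cell cycle lists held no call. Over 27 tested G2 and mitosis genes the median change was -0.91 in experiment 1 and 0.02 in experiment 2, and the median of the averaged changes went from -0.46 to -0.05 without the LY2784544 array of experiment 1 and to -0.83 without that of experiment 2. The G1 cyclins and CDK inhibitors had medians of -0.08 and -0.05. DLGAP5, a spindle protein, went from 9.62 to 7.70 in experiment 1 and from 9.44 to 9.35 in experiment 2 (adjusted p = 0.501). AURKA, a mitotic kinase, went from 9.39 to 8.08 and from 9.20 to 8.88 (adjusted p = 0.309). CDK1, the kinase that drives entry into mitosis, went from 9.06 to 7.47 and from 8.56 to 8.54 (adjusted p = 0.568). In all 3 the difference was larger in experiment 1. Over 32 DNA replication genes the median was -0.17 and -0.04, and their median change of -0.08 became 0.03 with 1 median for all arrays, 0.14 without the LY2784544 array of experiment 1 and 0.02 without the control of experiment 2. CCND1 and CCND2, which encode D-type cyclins, had changes of -0.42 (adjusted p = 0.547) and -0.36 (adjusted p = 0.653).

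**Figure D3:**
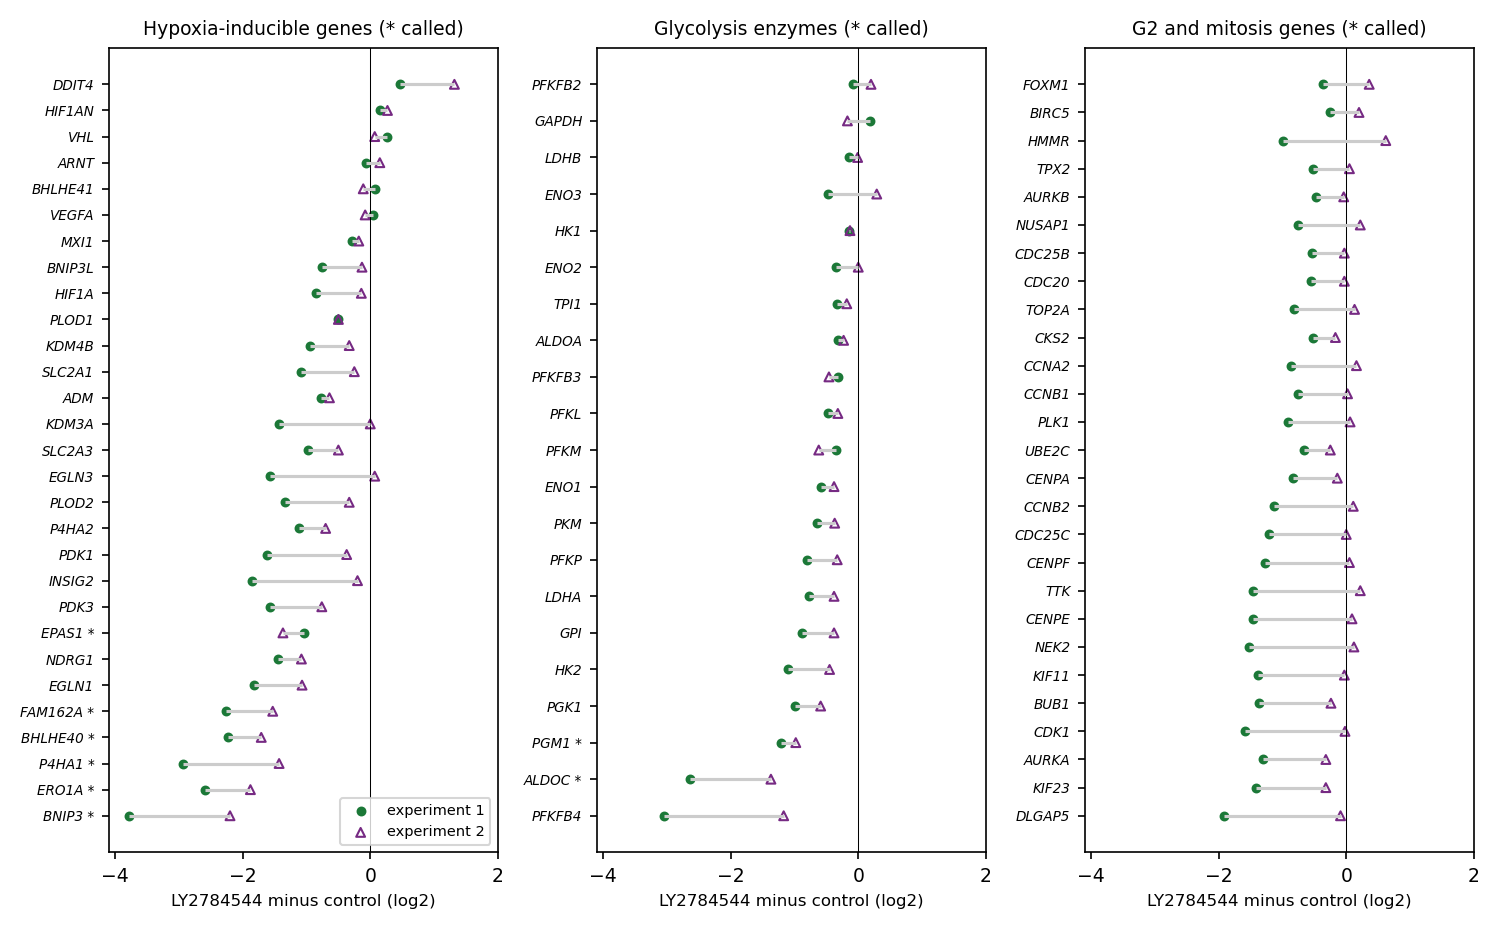
Change with LY2784544 against vehicle (log2) of each tested hypoxia-inducible, glycolysis and G2 and mitosis gene in experiment 1 (circles) and experiment 2 (triangles), with asterisks on called genes. The G2 and mitosis genes lie left of 0 in experiment 1 and near 0 in experiment 2 (medians -0.91 and 0.02), while the called hypoxia genes lie left of 0 in both.

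**Figure D4:**
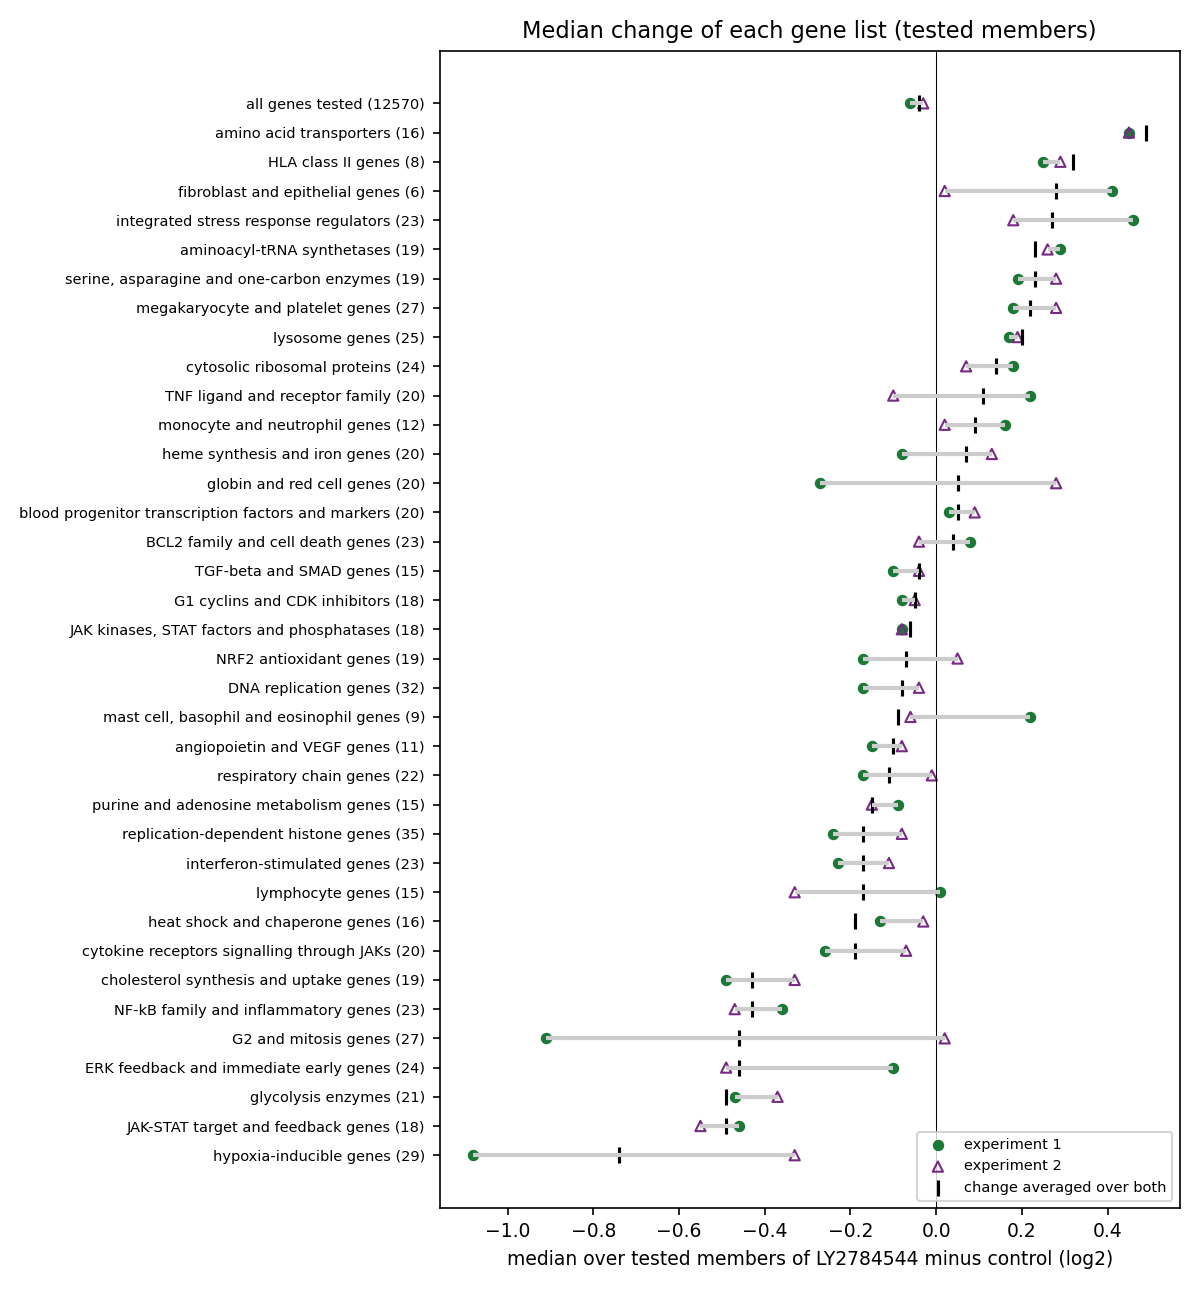
Median change with LY2784544 against vehicle (log2) over the tested members of each of 36 gene lists, with the number tested in brackets, for experiment 1 (circle), experiment 2 (triangle) and the average of both (bar); all tested genes are at the top. The G2 and mitosis list has the widest gap between the experiments, -0.91 against 0.02, and the amino acid transporter list has almost none.

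Whether the response differed between the experiments was tested over both pairs of arrays that differ by LY2784544, alone and on top of GRN163L. No gene was called in limma's interaction of experiment with exposure (smallest adjusted p = 0.0622). An unadjusted p below 0.05 was found there for 1411 genes, against 628 expected if no gene differed. Only 2 residual degrees of freedom stood behind that fit. The genes with the largest differences toward experiment 2 included RGS2, a regulator of G protein signalling (2.37), HBZ (2.23) and the cytochrome oxidase subunit COX7B, which went from 6.93 to 4.86 in experiment 1 and from 6.85 to 7.16 in experiment 2.

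Among the remaining large falls were several signalling and adhesion genes. SMAD3, the transducer of TGF-beta signals, read 7.75 and 7.37 with vehicle and 5.87 and 4.71 with LY2784544 and fell by 2.27 (SE 0.34, adjusted p = 0.0185). SMAD3 was the only call among 15 tested genes of that pathway, against 0.883% of all genes called lower. ANGPT2, a ligand of the TEK receptor, read 7.82 and 7.10 against 5.42 and 4.83 and fell by 2.34 (SE 0.35, adjusted p = 0.0189). SEPTIN10, a cytoskeletal GTPase, read 6.11 and 6.25 against 4.09 and 3.42 and fell by 2.43 (adjusted p = 0.00371), reaching signals below the filter level. SAMSN1, an adaptor that restrains lymphocyte signalling, read 9.93 on both control arrays and 7.84 and 7.90 with LY2784544, and it fell by 2.06 (adjusted p = 0.0032).

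Further falls were those of BACE2, a membrane protease (-1.88, adjusted p = 0.046), THRB, a thyroid hormone receptor (-1.77, adjusted p = 0.00865), BIN1, which bends membranes (-1.73, adjusted p = 0.00458), and ROR2, a WNT5A receptor (-1.68, adjusted p = 0.0069). PDGFRB, a growth factor receptor typical of fibroblasts and pericytes, fell by 0.99 (adjusted p = 0.0443) from control signals of 5.55 and 5.73. PDGFRB was the only call among 6 tested fibroblast and epithelial genes, against 0.883% of all genes called lower.

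Metallothioneins, small proteins that bind zinc and copper, were picked out after their values were seen. The called falls were MT1E (change -1.80, adjusted p = 0.0263), MT1F (-1.59, adjusted p = 0.0337), MT1G (-1.53, adjusted p = 0.0251) and MT1L (-1.09, adjusted p = 0.0242). MT1G read 8.98 and 8.56 with vehicle and 7.02 and 7.47 with LY2784544. These genes are near copies of each other, so their probe sets may share signal and the 4 calls cannot be counted as separate.

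The largest rise was that of LYVE1, with 4.30 and 4.52 under vehicle and 7.33 and 7.57 under LY2784544 (change 3.04, SE 0.30, adjusted p = 0.00458). SLC37A2, a sugar phosphate exchanger of the endoplasmic reticulum, read 6.73 and 6.57 against 9.40 and 8.76 and rose by 2.43 (adjusted p = 0.00783). HTRA3, a secreted serine protease, read 5.02 and 5.35 against 7.24 and 7.51 and rose by 2.19 (adjusted p = 0.00371), and the long noncoding RNA UCA1 read 4.63 and 4.70 against 6.57 and 6.77 and rose by 2.01 (adjusted p = 0.0032). JUP, the junction protein plakoglobin, rose by 1.78 (adjusted p = 0.0112) from a higher level, 9.26 and 8.95 against 11.17 and 10.59.

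Many rises started from dim signals. The control mean was below 6 in 27 of the 49 called rises and 21 of the 111 called falls, and in 27.2% of all genes tested. The medians of olfactory receptor genes, given above, were also higher on the LY2784544 arrays, and their part in these rises was not tested. REXO1L1P and REXO1L2P, which rose by 2.95 (adjusted p = 0.0398) and 2.19 (adjusted p = 0.0359), are copies in a repeated gene cluster, so their signals cannot be assigned to 1 locus. Of the called genes, 8 had more than 1 probe set, and in all 8 the probe sets changed in the same direction. For MAS1L, NCR3 and REXO1L1P all probe sets had the same level and change, as did some of those for TRIM40 and REXO1L2P. Agreement among such copies is no separate check. The probe sets of AK4, HLA-DRA and PSD3 differed in level.

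LY2784544 was then set against the other single agent. Against GRN163L, 132 genes were called (1.05%), 29 higher (0.231%) and 103 lower (0.819%), or 52 and 69 with 1 median for all arrays and 48 and 78 after quantile normalization. The count was 0 and 6 without the GRN163L array of experiment 1 or 2 (1587 genes at an unadjusted p below 0.05 in the first case), 55 and 66 without an LY2784544 array, 211 without either combination array, and 441 with the experiment as a block. BNIP3 read 11.38 and 11.01 with GRN163L, which was 2.99 above its LY2784544 mean (SE 0.39, adjusted p = 0.0134), and ERO1A read 8.18 and 8.30 with GRN163L (LY2784544 minus GRN163L -1.96, adjusted p = 0.0103). The GRN163L arrays of both genes lay in or near the range of the controls. PPBP read 5.61 and 6.21 with GRN163L, and LY2784544 was higher by 2.54 (SE 0.23, adjusted p = 0.00389). UCA1, HTRA3 and BMF were also higher with LY2784544, by 2.42 (adjusted p = 0.00201), 2.61 (adjusted p = 0.00298) and 1.32 (adjusted p = 0.0184).

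For other genes the agents were not told apart. SOCS3 read 7.02 and 6.85 with GRN163L, and LY2784544 minus GRN163L was 0.29 (SE 0.18, adjusted p = 0.50). MT1G read 7.05 and 7.01 with GRN163L (difference 0.22, SE 0.24, adjusted p = 0.73), and SLC7A11 read 9.66 and 10.19 (difference 0.20, SE 0.21, adjusted p = 0.714). BCL3 lay between, at 7.72 and 7.57 with GRN163L, and was lower with LY2784544 by 1.21 (SE 0.16, adjusted p = 0.0135). A p above the threshold does not show that the agents act alike on these genes.

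The 160 called genes were also read in arrays that did not enter their change, the combination against GRN163L alone. This contrast was added after the data were seen. It takes the inhibitor's dose in the combination as equal to that given alone. It has no array in common with LY2784544 against vehicle, although all 8 arrays share the estimate of spread and the arrays of an experiment deviate together. In it 68 genes were called (0.541%), 9 higher (0.0716%) and 59 lower (0.469%).

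Of the 111 falls, 108 were lower again (97.3%, against 61.6% of all genes tested), and 34 were called lower (30.6%). In both experiments 105 were lower, against 5575 of all 12570 genes. The median change of the 111 falls was -1.31 with LY2784544 alone and -0.89 on top of GRN163L. BNIP3 read 8.58 and 9.49 with the combination, below both GRN163L arrays, and SOCS3 read 5.23 and 5.58, also below both. Of the 49 rises, 39 were higher again (79.6%, against 38.1%), and 3 were called higher. In both experiments 29 were higher, against 2969 of all 12570 genes. The median of the 49 rises was 1.30 alone and 0.27 on top of GRN163L, where the median over all genes tested was -0.09. On top of GRN163L, 7 of the 49 rose by at least 1, against 45 of all 12570 genes. Genes picked for a large change in 1 contrast tend to change less in another, so the choice itself favours smaller medians in both sets. The 3 called again were PPBP, at 8.97 and 9.16 with the combination, LYVE1, at 7.16 and 7.74, and TRIM40.

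Several rises were smaller or turned with GRN163L present, though 39 of the 49 were higher again. UCA1 was at 4.13 and 4.37 in the GRN163L cultures and at 4.35 and 4.36 in the combination cultures, and HTRA3 was at 4.91 and 4.62 against 5.18 and 4.93, higher in both experiments. HLA-DRA went down, from 7.45 and 7.97 to 5.77 and 6.23 (change -1.71, adjusted p = 0.0204). The difference of the LY2784544 effect with and without GRN163L was tested over all genes, and none was called in limma (smallest adjusted p = 0.12). In that fit 464 genes had an unadjusted p below 0.05, fewer than the 628 expected if no gene differed. HLA-DRA (-2.91) and UCA1 (-1.90) were the genes at that smallest adjusted p.

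**Figure D5:**
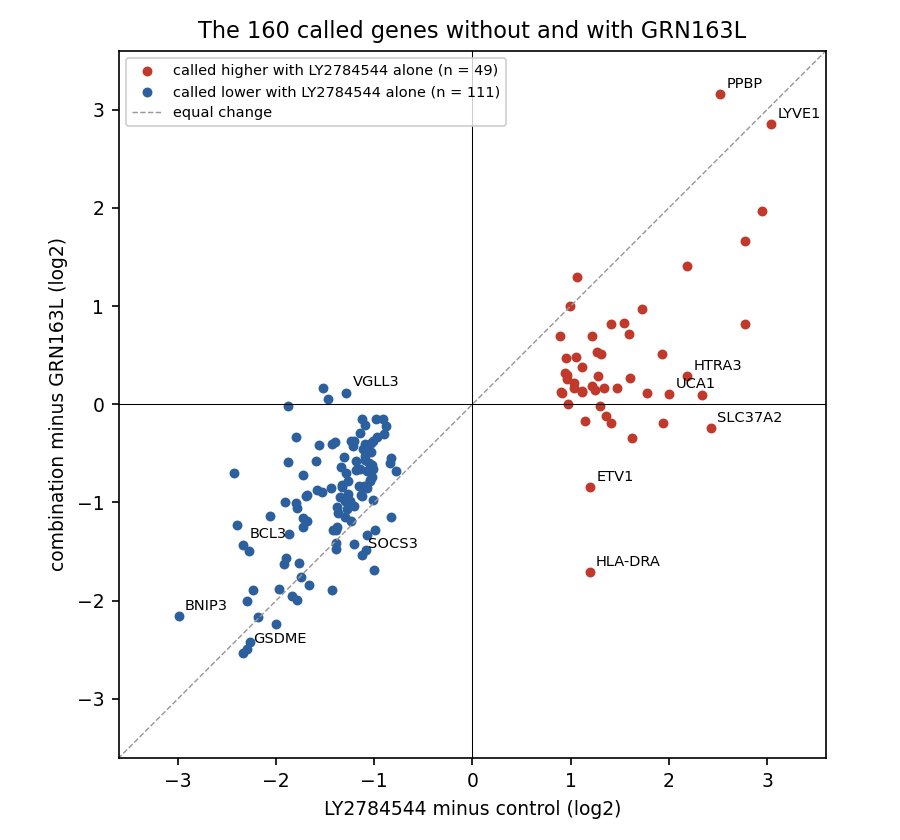
Change with LY2784544 alone (log2, horizontal axis) and change of the combination against GRN163L (log2, vertical axis) for the 160 called genes, with a dashed line of equal change. Of the 111 falls, 108 lie below 0 on both axes, at a median of -1.31 alone and -0.89 on top of GRN163L, while many of the 49 rises lie near 0 on the vertical axis and HLA-DRA lies below it.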

How the data were processed

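Total RNA of HEL cells (150 ng, extracted with Trizol) was labelled with Affymetrix kits and hybridised to 8 arrays, per the labels' protocols. Deposited were log2 signals, 1 for each probe set, that the authors made with RMA (background subtraction, quantile normalization and summary over probes) in Affymetrix Expression Console, per the submitters' processing notes. Not given in the sources used here are the program's version, the genome build and whether the 8 arrays went through 1 normalization. Base 2 was inferred from RMA and from how far the values reach. RMA compresses changes of dim probe sets, forces arrays to nearly 1 distribution, and leaves precision to the number of arrays. No array was a copy of another: at most 1.90% of probe sets had the same value on 2 arrays.

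Probe sets were named with GEO's platform annotation. It named 1 gene for 19181 probe sets and several for 2055, and 12061 stay unnamed here. RefSeq held the gene number of 19143. Of 17958 genes, 895 had more than 1 probe set, and the one with the highest mean was kept. Genes with a mean under the 30th percentile (4.37) were left out.

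Means of the 4 groups were fitted to the 8 arrays by limma 3.58.1 in R 4.3.3, with empirical Bayes moderation (4 residual and 4.65 prior degrees of freedom). The fit was also run on simulated data with the same spread for every gene and no difference between experiments. That run cannot show how the fit handles unequal spreads or deviations shared within an experiment. Contrasts were LY2784544 against control, LY2784544 against GRN163L and experiment by exposure. The combination against GRN163L and its difference from LY2784544 against control were added after the data were seen. The labels name the first and second experiment, which pairs the arrays. Deviations from group means correlated with r = 0.67 between LY2784544 and combination arrays of an experiment, 0.19 between control and LY2784544, and between 0.10 and 0.39 for the other 4 pairs of groups.

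The comparison and the gene lists were chosen with earlier results of these data known, so the lists are described by counts and medians only. Named genes are JAK2, the 20 largest rises and falls among calls, called list members or else up to 5 with the smallest p, the largest differences between experiments, and further called genes by name. Others were chosen after their values were seen, and some genes within the rule are left out for brevity. Motifs were searched in the first listed RefSeq promoter (250 bases before the start). Alternatives were the block, the filter, fewer arrays, moderation, scaling, the handling of probe sets, a minimum change and leaving out each array. One more, which leaves out both LY2784544-treated arrays of experiment 1, was added after the data were seen.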

Additional observations from a re-analysis of the deposited data

Results flagged for a closer look

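Among the 160 genes called with LY2784544 alone, 8 changed in the opposite direction in both experiments when LY2784544 was given on top of GRN163L. The values are the change on top of GRN163L minus the change alone, on the log2 scale. They were -2.91 for HLA-DRA, -2.68 for SLC37A2, -2.14 for CDC42EP1, an effector of the GTPase CDC42, and -2.04 for ETV1. LBH, a transcription cofactor, had -1.97, PSAT1 had -1.49, and SLC22A20P, a pseudogene of a transporter, had -1.32. VGLL3, a cofactor of TEAD factors that fell with LY2784544 alone, had 1.41. ETV1 was at 5.18 and 5.40 in the GRN163L cultures and at 4.32 and 4.58 in the combination cultures, lower in both, while VGLL3 read 7.20 and 7.30 against 7.28 and 7.46. The difference was tested by limma's interaction over all genes, in which none of the 8 was called (smallest adjusted p = 0.12).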

How the results depend on the processing

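All 160 calls against control kept their direction under every alternative in which the gene was tested (single probe sets were compared by count only), and their number past the threshold ranged from 0 to 160. Only scaling, averaging of probe sets and leaving out a control or LY2784544 array alter a gene's change, so under the others its direction was fixed beforehand. Genes called on 2 against 2 arrays were also selected for agreement between arrays. For LY2784544 against control the replicate block gave 345 calls (99 higher, 246 lower), a filter at the 50th percentile 70 (17 and 53), and a fit on the compared arrays alone 79 (25 and 54). Against GRN163L these counts were 441 (111 and 330), 61 (13 and 48) and, with 51 higher, 190 in all. A filter at the 50th percentile tested 8979 genes. The rises against GRN163L numbered 52 with 1 median on every array and 48 after quantile normalization. Leaving out 1 array at a time gave 0 to 212 calls against control (0 to 70 higher, 0 to 142 lower) and 0 to 211 against GRN163L (0 to 60 and 0 to 151). Where 1 array of a group was left out, the other was assumed to vary like the remaining groups. With both LY2784544-treated arrays of experiment 1 left out, chosen after the data were seen, 134 genes were called against control, 89 of them among the 160, and 48 rises against GRN163L. The other alternatives (no filter, trend or robust moderation, mean or single probe sets, a change of at least 1) gave 140 to 185 calls against control. The cause of these differences was not tested. List medians changed sign with 1 median on every array for the kinases, mast cell, DNA replication, G1, NRF2, TGF-beta and angiopoietin lists, all within 0.10 of 0. Sign changes also came without the LY2784544 array of experiment 1 (DNA replication, G1, BCL2, NRF2, respiratory chain and TNF lists), without that of experiment 2 (globin, mast cell and lymphocyte lists) and without the control of experiment 2 (globin, DNA replication and G1 lists). The cholesterol list went from -0.43 to -0.09 without the LY2784544 array of experiment 1 and to -0.15 without the control of experiment 2. Signals near the dim probe sets limit what can be said of genes under the filter.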
